A study of Mus musculus with 6 samples.

Results

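The genes described here encode the proteins that make and cut the amyloid precursor, together with tau, and they were measured in the hippocampus of mice with and without a disrupted allele for TonEBP. Members were taken by gene symbol: App, Mapt, Adam10, Bace1, Psen2, Ncstn, Aph1a, Aph1b and Psenen, which are 9 of the 24346 genes listed and 9 of the 13122 genes tested. They were selected on their role, with the genotype differences of an earlier analysis of these libraries in view, in which Aph1a, Psenen and Psen2 stood out within a longer amyloid list. Their genotype differences are therefore given as a description. All 6 libraries were of total RNA from the hippocampus of C57BL/6 mice aged 12 months. HET 1, HET 2 and HET 3 came from TonEBP+/- mice, which carry 1 disrupted allele of Nfat5, the gene for the tonicity-responsive enhancer binding protein TonEBP. WT 1, WT 2 and WT 3 came from TonEBP+/+ littermates. Both kinds of animal were born to TonEBP+/- parents back-crossed to C57BL/6J for 5 to 6 generations. The loss is in the whole body, and the labels leave unsaid where in Nfat5 the disruption lies and whether the numbered samples are separate animals. The p-values below therefore measure the spread between these samples.

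The amyloid precursor protein is a membrane protein of neurons and other brain cells. An alpha-secretase can cut it within the amyloid beta stretch. Alternatively a beta-secretase cuts it at the start of that stretch, and gamma-secretase then cuts the remaining stub inside the membrane and releases amyloid beta. Gamma-secretase is a complex of a catalytic presenilin, nicastrin, an APH-1 protein and PEN-2, and it also cuts Notch receptors and many other membrane proteins. Tau binds and stabilises axonal microtubules, and it forms the tangles of Alzheimer's disease.

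The libraries held an estimated 7900000 to 12550000 fragments, read from the steps between low values, and listed values are used here as FPKM, that is, fragments per kilobase relative to library depth. Markers of neurons (10 of 10 tested) and of hippocampal pyramidal and granule neurons (10 of 10 tested) were present in every library, as the tissue label requires. Summed hippocampal neuron markers were 798 to 940.4 FPKM in HET and 797 to 987 FPKM in WT. The libraries differed in markers of tissue that borders the hippocampus. Choroid plexus markers summed to 1797, 97.7 and 3459 FPKM in HET 1, HET 2 and HET 3 and to 1062, 2894 and 284 FPKM in WT 1, WT 2 and WT 3. Thalamus and habenula markers summed to 272, 155 and 149 FPKM in HET 1, HET 2 and HET 3 and to 243, 265 and 251 FPKM in WT 1, WT 2 and WT 3, with 12 of 14 tested lower in HET on average. Meninges and fibroblast markers summed to 61.5 to 100.6 FPKM in HET, where HET 2 and HET 3 were above all WT libraries, and to 58.0 to 78.0 FPKM in WT. Of these markers, 8 of the 8 tested were higher in HET on average, with a median log2 difference of 0.21. Nfat5 itself was at 8.25, 9.31 and 8.42 FPKM in HET and at 10.5, 8.39 and 9.72 FPKM in WT, with overlapping ranges and a log2 difference of -0.12 (95% interval -0.34 to 0.09). A whole-gene value can count transcripts of a disrupted allele, so it does not check the labels.

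The APH-1 genes need care before their values are read, and the start of the coding sequence of Aph1b and its neighbour Aph1c shows why. Aph1b (chr9:66775202-66797345, GRCm38.p6, minus strand) and Aph1c (chr9:66814991-66834706, minus strand) lie side by side, and RefSeq lists each symbol as a synonym of the other gene. The first 120 coding bases of each, from GENCODE M21 transcripts, are shown with the 14 differing bases in capitals.
Aph1b: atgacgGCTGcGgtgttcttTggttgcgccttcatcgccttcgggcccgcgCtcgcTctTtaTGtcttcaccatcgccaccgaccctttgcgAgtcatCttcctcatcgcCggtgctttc
Aph1c: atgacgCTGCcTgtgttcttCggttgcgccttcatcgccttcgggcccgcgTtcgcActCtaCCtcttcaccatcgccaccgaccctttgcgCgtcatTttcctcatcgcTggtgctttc
Over the whole coding sequences, 742 of 774 aligned positions were identical (95.9%), and the longest identical run was 341 bases. Of all 51-base windows of the Aph1b coding sequence, 46.3% occurred letter for letter in that of Aph1c. In the full transcripts, with their untranslated ends, this share was 19.4%. The sources used here do not give how reads shared by the 2 genes were assigned, so the split between Aph1b and Aph1c is uncertain.

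The promoters of the 3 subunit genes whose HET libraries lay apart from the WT libraries are shown with the letters GGAAA, the core of the sites that TonEBP and the other NFAT proteins bind, in capitals. The search covered both strands, so that TTTCC marks the core on the other strand, and each RefSeq window (GRCm38.p6) runs from 250 bases before to 50 bases after a start.
Psen2, chr1:180256251-180256550, minus strand: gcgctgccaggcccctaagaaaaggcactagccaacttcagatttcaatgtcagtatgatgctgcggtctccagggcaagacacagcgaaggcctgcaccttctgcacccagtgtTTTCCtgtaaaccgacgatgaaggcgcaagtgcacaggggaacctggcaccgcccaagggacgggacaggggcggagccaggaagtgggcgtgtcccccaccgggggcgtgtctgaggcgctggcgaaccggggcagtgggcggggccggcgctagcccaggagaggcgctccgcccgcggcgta
Aph1a, chr3:95893671-95893970, plus strand: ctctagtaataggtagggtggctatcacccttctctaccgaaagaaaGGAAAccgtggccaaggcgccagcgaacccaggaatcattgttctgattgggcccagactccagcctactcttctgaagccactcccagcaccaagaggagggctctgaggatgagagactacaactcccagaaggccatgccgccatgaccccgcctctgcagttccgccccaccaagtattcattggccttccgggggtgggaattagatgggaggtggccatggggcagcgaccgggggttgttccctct
Psenen, chr7:30563578-30563877, minus strand: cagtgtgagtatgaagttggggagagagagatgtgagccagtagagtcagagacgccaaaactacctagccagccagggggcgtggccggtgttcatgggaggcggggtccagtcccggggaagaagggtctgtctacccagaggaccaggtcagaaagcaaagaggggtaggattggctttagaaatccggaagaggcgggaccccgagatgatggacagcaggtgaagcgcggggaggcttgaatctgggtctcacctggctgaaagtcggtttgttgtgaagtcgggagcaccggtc
The table held windows for 7 of the 9 members, 9 windows in all, with a second start each for Psen2 and Psenen. GGAAA was found in 4 of the 9 windows, namely both of Psen2 and those of Aph1a and App, against 61.3% of all 32851 windows. The longer TGGAAA, which contains GGAAA, was found in 0 of the 9, against 21.4% of all windows. The member windows were 47.7% to 73.3% G and C, where the median of all windows was 52.7%. The windows shown for Psen2 and Aph1a thus held a single core each and that for Psenen held none. A missing match says only that these letters are not in the window. Both Psen2 windows lie inside the listed span of the gene. Its outer end on the minus strand is at 180263467, and no window covers that end.

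By level, App (chr16:84952666-85175255) stood far above the rest and Psen2 (chr1:180227004-180263467) stood lowest. App, the precursor itself, averaged 296 FPKM over the 6 libraries and ranked 221 of the 13122 genes tested. Mapt, the tau gene, averaged 64.8 FPKM, and Psenen, the gene for PEN-2, averaged 62.1 FPKM. Adam10, the main alpha-secretase of neurons, followed with 31.7 FPKM and Bace1, the beta-secretase, with 17.8 FPKM. The other gamma-secretase genes lay below both of these, with 11.6 FPKM for Ncstn (nicastrin), 11.5 FPKM for Aph1a, 8.11 FPKM for Aph1b and 4.99 FPKM for Psen2 (presenilin 2). Neighbours in this order were compared within each library by a two-sided exact sign-flip permutation test on log2 FPKM, for which the smallest p with 6 libraries is 0.03125. Of 8 neighbour pairs, 6 passed (adjusted p = 0.0417 for each, Benjamini-Hochberg over the 8 in this exact test), with the upper gene higher in 6 of 6 libraries. App exceeded Mapt by 2.19 ± 0.11 on the log2 scale (SD, n = 6), Psenen exceeded Adam10 by 0.97 ± 0.15, and Adam10 exceeded Bace1 by 0.83 ± 0.11. Bace1 exceeded Ncstn by 0.62 ± 0.12, Aph1a exceeded Aph1b by 0.50 ± 0.22, and Aph1b exceeded Psen2 by 0.71 ± 0.21. Mapt and Psenen could not be ordered (0.06 ± 0.16, exact p = 0.5, adjusted p = 0.571), nor could Ncstn and Aph1a (0.03 ± 0.20, exact p = 0.781, adjusted p = 0.781). These levels are per length, and the sources used here do not give the transcript lengths behind them.

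**Figure D1:**
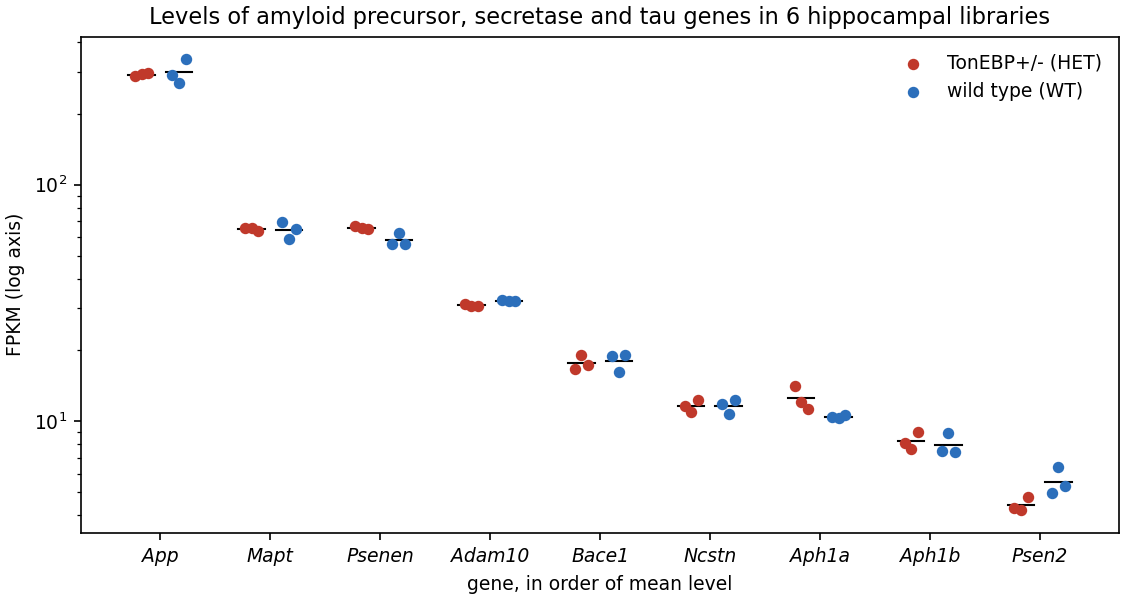
FPKM (log axis) of the 9 genes in each library, with HET in red left of WT in blue and a black line at each mean of 3 libraries. App lies at 270.1 to 339 FPKM and Psen2 at 4.20 to 6.40 FPKM, and HET and WT points lie apart for Psenen, Adam10, Aph1a and Psen2.

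Within gamma-secretase, subunit transcripts were present at unequal levels. PEN-2, the smallest subunit, which joins last and is needed for presenilin to be cleaved into its active form, had by far the most transcript. Psenen was 5.33 times the level of Ncstn, 5.43 times that of Aph1a and 12.5 times that of Psen2, as geometric means over 6 libraries. Aph1c, at 1.03 to 1.52 FPKM, was lowest of the 6 subunit genes compared. All 15 pairs of these 6 genes were tested in the same way, and 14 passed (exact sign-flip test, adjusted p = 0.0335 for each), with the same gene higher in 6 of 6 libraries. Ncstn and Aph1a were the pair that did not pass. Ncstn was 2.35 times and Aph1a 2.31 times the level of Psen2. APH-1 proteins are the scaffold on which the complex is first assembled with nicastrin, and a complex holds a single APH-1 protein. Aph1a made up 60.8%, 57.1% and 51.9% of the summed APH-1 transcripts in HET 1, HET 2 and HET 3 and 53.5%, 50.1% and 55.1% in WT 1, WT 2 and WT 3, so the genotypes overlapped in this share. The summed FPKM of Aph1b and Aph1c was 9.12, 9.11 and 10.4 FPKM in HET and 9.04, 10.3 and 8.61 FPKM in WT, again with overlap, and the handling of shared reads can affect this sum too.

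Between genotypes, 0 of the 9 members passed the limma test over all genes (adjusted p = 1.00 for each; Benjamini-Hochberg over 13122 genes), and 0 of all genes tested did (0% called). The HET and WT libraries did not overlap in 4 members, against 8.52% of all genes tested. Of these 4, HET was above WT for Aph1a and Psenen (4.13% of all genes) and below it for Psen2 and Adam10 (4.39% of all genes). Because the members were picked with this contrast in view, nothing is read from these counts. The SD within genotypes on the log2 scale was 0.01 to 0.13 for the members, and its median over all genes tested was 0.12.

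The 3 subunits with the largest differences did not move in 1 direction. Psen2 was at 4.30, 4.20 and 4.78 FPKM in HET and at 4.95, 6.40 and 5.33 FPKM in WT. Its 3 HET libraries were all below its 3 WT libraries, and WT 2 was the highest. The log2 difference was -0.27 (SE 0.108, 95% interval -0.51 to -0.03), and the ratio of the means was 0.796. Without WT 2 the log2 difference was -0.18. Psen2 rested on at most 69 to 121 fragments per library if its longest coding transcript of 2020 bases is taken, for which counting error alone is 9.09% to 12.1% of the value. Thalamus markers were below all WT libraries in HET 2 and HET 3 and above them in HET 1, and their part in the Psen2 values was not tested.

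Aph1a was at 14.1, 12.1 and 11.2 FPKM in HET and at 10.4, 10.3 and 10.6 FPKM in WT. The WT libraries were close together, HET 3 was just above them and HET 1 was the highest. The log2 difference was 0.23 (SE 0.0909, 95% interval 0.03 to 0.43), the ratio of the means was 1.19, and without HET 1 the difference was 0.14. By its longest coding transcript of 2863 bases, Aph1a rested on at most 255 to 403 fragments per library. Counting error alone is then 4.98% to 6.27% of the value, more than the SD of the WT libraries (0.127 FPKM). Aph1a (chr3:95893921-95898592, plus strand) shares 445 of its 3450 annotated exon bases with Car14, a carbonic anhydrase gene on the opposite strand. Car14 was at 10.5, 7.67 and 13.4 FPKM in HET and at 8.39, 12.7 and 7.75 FPKM in WT, with overlapping ranges, and the part of its reads in the Aph1a values was not tested. The library kit keeps strand, but the sources used here do not give whether counting used it.

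Psenen was at 66.6, 65.8 and 64.9 FPKM in HET and at 56.0, 62.8 and 56.3 FPKM in WT. The HET libraries were close together and all above WT 2, the highest of the WT libraries. The log2 difference was 0.17 (SE 0.0686, 95% interval 0.02 to 0.33) and the ratio of the means 1.13. By its longest coding transcript of 708 bases, Psenen rested on at most 373 to 577 fragments per library. Counting error alone is then 4.16% to 5.18% of the value, more than the SD of the HET libraries (0.847 FPKM). Psenen (chr7:30561865-30563627, minus strand) shares 119 of its 1275 annotated exon bases with U2af1l4, a splicing factor gene on the opposite strand. U2af1l4 was at 21.9, 17.1 and 18.9 FPKM in HET and at 18.4, 21.2 and 21.4 FPKM in WT, with overlapping ranges.

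The remaining subunits overlapped between genotypes. Ncstn, whose product recruits substrates to the complex, was at 11.6, 10.9 and 12.3 FPKM in HET and at 11.9, 10.7 and 12.3 FPKM in WT. Its log2 difference was -0.00 (SE 0.0831, 95% interval -0.19 to 0.18). Aph1b was at 8.09, 7.62 and 9.04 FPKM in HET and at 7.52, 8.96 and 7.43 FPKM in WT, with a log2 difference of 0.05 (95% interval -0.17 to 0.27). In Ncstn and Aph1b the highest and lowest libraries of the 2 genotypes interleaved.

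**Figure D2:**
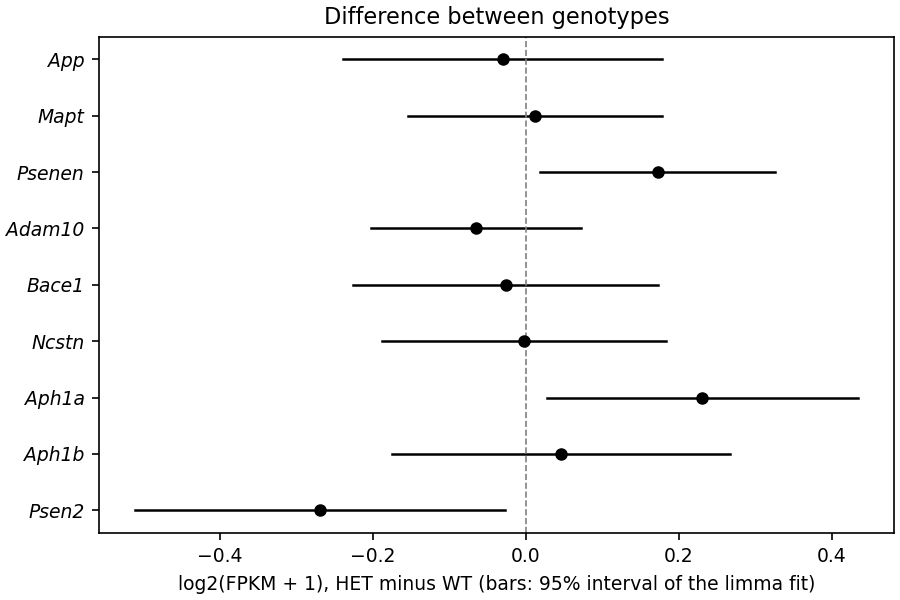
Log2 difference, HET minus WT, of each gene (points) with the 95% interval of the limma fit (bars), in order of level. The intervals of Psenen, Aph1a and Psen2 do not reach 0, those of the other 6 genes do, and none of the 9 passed after adjustment over all genes.

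Ratios between subunits within a library do not depend on the scaling between libraries. The ratio of Psenen to Psen2 was 15.5, 15.7 and 13.6 in HET and 11.3, 9.81 and 10.6 in WT. The ratio of Aph1a to Psen2 was 3.29, 2.88 and 2.35 in HET and 2.10, 1.62 and 1.99 in WT. In both ratios the HET libraries lay above the WT libraries, as they had to. Psenen and Aph1a were higher, and Psen2 lower, in every HET library than in any WT library. Relative to the mean of the 5 member subunits, Psen2 was at -1.54 on the log2 scale in HET and at -1.18 in WT, a difference of -0.35. Aph1a was at -0.04 in HET and at -0.26 in WT, but HET 3 (-0.22) lay within the WT range (-0.35 to -0.22). Psenen was at 2.36 in HET and at 2.22 in WT, while Ncstn and Aph1b differed by -0.03 and 0.02. These ratios come from the same contrast and are given with no test.

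**Figure D3:**
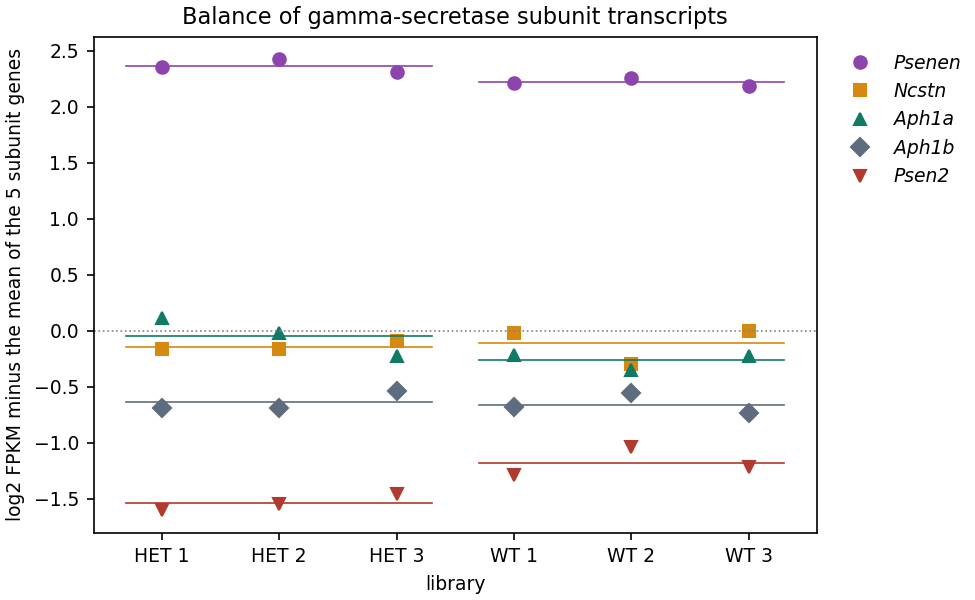
Log2 FPKM of the 5 gamma-secretase member genes in each library, minus their mean in that library (lines: mean of 3 libraries). Psen2 lies at -1.60 to -1.46 in HET and at -1.29 to -1.04 in WT, and Psenen at 2.31 to 2.42 in HET and at 2.18 to 2.25 in WT.

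The precursor and the enzymes that cut it first differed little. App was at 287, 294 and 296 FPKM in HET and at 290.0, 270.1 and 339 FPKM in WT. All 3 HET libraries lay within the WT range, which WT 2 and WT 3 set. The log2 difference was -0.03 (SE 0.0935, 95% interval -0.24 to 0.18). Bace1 was at 16.6, 19.1 and 17.3 FPKM in HET and at 18.9, 16.1 and 19.1 FPKM in WT, with a log2 difference of -0.03 (SE 0.0893, 95% interval -0.23 to 0.17) and overlapping ranges. Of the annotated exon bases of Bace1 (chr9:45838545-45862484), 15.4% are shared with Rnf214 on the opposite strand. Adam10 (chr9:70678944-70780229) was at 31.2, 30.8 and 30.7 FPKM in HET and at 32.6, 32.3 and 32.4 FPKM in WT. Its libraries agreed closely within each genotype and did not overlap, with a ratio of the means of 0.955 and a log2 difference of -0.07 (SE 0.0614, 95% interval -0.20 to 0.07). The interval includes 0 because limma moderates so small a spread (0.01 on the log2 scale) toward that of other genes. Adam10 rested on at most 1133 to 1771 fragments per library by its longest coding transcript of 4593 bases. Counting error alone is then 2.38% to 2.97% of the value. The SD was 0.27 FPKM in HET and 0.14 FPKM in WT, a closer agreement than that error alone would give. The ratio of Adam10 to Bace1 was 1.88, 1.61 and 1.78 in HET and 1.72, 2.01 and 1.70 in WT, with overlap.

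Tau transcript overlapped between genotypes too. Mapt (chr11:104229409-104332090) was at 65.9, 65.5 and 63.5 FPKM in HET and at 69.5, 59.0 and 65.3 FPKM in WT. The HET libraries lay within the WT range. The log2 difference was 0.01 (SE 0.0741, 95% interval -0.15 to 0.18). The values are for whole genes and do not separate tau forms with 3 or 4 microtubule-binding repeats, nor the forms of the precursor with and without its protease inhibitor domain. Neuron markers summed to 2046 to 2258 FPKM in HET and 2156 to 2336 FPKM in WT, and 9 of the 10 were lower in HET on average. Oligodendrocyte markers, of cells that also express Mapt and Bace1, summed to 3258 to 4560 FPKM in HET and 4034 to 4266 FPKM in WT. HET 2 was lowest, and 9 of the 10 oligodendrocyte markers were lower in HET on average. Microglia markers summed to 286 to 337 FPKM in HET and 285 to 305 FPKM in WT, and HET 1 was highest, as it was for Aph1a. HET 2, the next highest for Aph1a, was below WT 2 and WT 3 in microglia markers. The part of these and of the choroid plexus and meninges markers in the members' values was not tested, and in bulk tissue fewer cells of a type and less RNA per cell cannot be told apart.

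Around the members, 10 pathway lists named 134 genes, of which 129 were tested and 120 are not members. Of these 120, 0 passed the limma test and 4 had an unadjusted p under 0.05 (3.33%, against 3.69% of all genes tested). HET and WT did not overlap in 7 of them (5.83%, against 8.52%). Their median log2 difference was -0.01, and that of all genes tested was -0.00. Of the 6 gamma-secretase genes, 3 were higher and 3 lower in HET, with a median of 0.02, which was 0.11 with the stricter filter on levels (a mean of 5 FPKM). Among the 11 genes of the precursor family and its adaptors, 6 were higher and 5 lower. The 2 non-members with the smallest p there were the adaptor genes Apbb2 (-0.14, SE 0.0887) and Apba1 (-0.15, SE 0.113). Of the 4 alpha- and beta-secretase genes tested, 1 was higher and 3 lower, and the sheddase genes Adam17 and Adam9 differed by 0.10 (SE 0.0908) and -0.01 (SE 0.0806).

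Of 20 tested genes of secretase trafficking and modulation, 6 were higher and 14 lower, with a median of -0.03. The HET and WT libraries did not overlap in 2 of the 20, against 8.52% of all genes tested. Sorcs1, which encodes a sorting receptor that binds the amyloid precursor, was at 3.47, 3.70 and 3.64 FPKM in HET and at 4.48, 4.67 and 5.27 FPKM in WT. The HET libraries lay close together below all WT libraries (log2 difference -0.33, SE 0.0970, limma adjusted p = 1.00). Gsap, which encodes gamma-secretase activating protein, was at 2.68, 2.73 and 2.99 FPKM in HET and at 2.02, 2.35 and 2.26 FPKM in WT. Here the HET libraries lay above all WT libraries (log2 difference 0.24, SE 0.106, limma adjusted p = 1.00). Of the 12 genes of amyloid beta degradation and clearance, 8 were higher and 4 lower (median 0.01). The endothelin-converting enzyme gene Ece2 (-0.11, SE 0.103) had the smallest p in that list.

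On the side of tau, 5 of 15 genes of tau and other microtubule proteins were higher and 10 lower (median -0.05), and Map4, for a microtubule-associated protein, had the smallest p (-0.14, SE 0.0791), followed by Stmn4, for a stathmin (-0.11, SE 0.0893). Tau kinase genes were split 7 higher to 8 lower (median -0.00), with Mark3 (0.15, SE 0.0729) and Mark4 (0.15, SE 0.0835), both microtubule affinity-regulating kinases, leading. Genes of tau phosphatases and their regulators were higher in 3 and lower in 11 of 14 (median -0.04). Among them the regulatory subunit genes of protein phosphatase 2A Ppp2r2d (-0.22, SE 0.136) and Ppp2r2a (-0.22, SE 0.142) had the smallest p, and their ranges overlapped between genotypes.

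Genes downstream of the secretases were described last. Of 26 tested genes for other secretase substrates, 12 were higher and 14 lower (median -0.01). Scn4b, a sodium channel beta subunit that the beta-secretase can cut, was at 8.27, 6.30 and 5.87 FPKM in HET and at 10.9, 10.9 and 11.2 FPKM in WT, with a log2 difference of -0.63 (SE 0.112, limma adjusted p = 0.872). Without HET 1 the log2 difference was -0.76 and passed (limma adjusted p = 0.0425). The thalamus and habenula markers Plekhg1, Prkcd, Shox2 and Slc17a6 passed in the same fit, all lower in HET. The lowest Scn4b values were in HET 2 and HET 3, which were also the libraries lowest in thalamus markers. HET 1, which was highest of all libraries in thalamus markers (272 FPKM), was also below all WT libraries in Scn4b. The part of these markers in the Scn4b values was not tested. Notch2, for a receptor that gamma-secretase cuts, differed by 0.16 (SE 0.0922). Of 6 tested Notch target genes, 5 were higher and 1 lower in HET, with a median of 0.13. Hes5, a transcriptional repressor induced by Notch, was at 14.1, 11.9 and 10.6 FPKM in HET and at 10.2, 9.96 and 8.49 FPKM in WT, a log2 difference of 0.32 (SE 0.111, limma adjusted p = 1.00), and the lowest HET library was just above the highest WT library. Hes1, of the same family, differed by 0.25 (SE 0.128) with overlapping ranges. Astrocyte markers, of a cell type that expresses Hes5, summed to 1808, 1591 and 1578 FPKM in HET and to 1647, 1622 and 1550 FPKM in WT, and HET 1 was highest in both. Their part in the Notch target values was not tested.

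**Figure D4:**
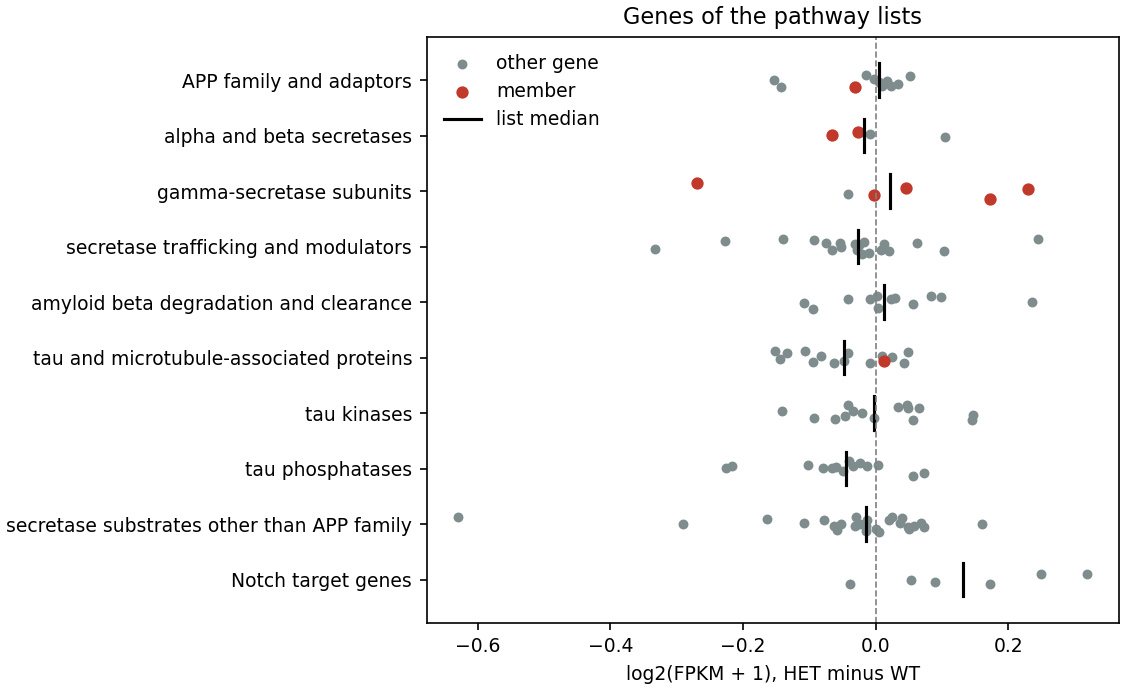
Log2 difference, HET minus WT, of each tested gene in the 10 pathway lists (grey: other genes; red: the 9 members; black bar: list median). The medians lie between -0.05 and 0.13, the gamma-secretase members spread from -0.27 to 0.23, and none of the genes passed after adjustment.

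Genes whose values ran most alike across the 6 libraries were ranked by Pearson's r of log2 values among 11928 named protein-coding genes, as a description. Nearest to App were Mpdu1 (r = 0.984), Tox4 (0.971) and Endod1 (0.971). Nearest to Aph1a were Filip1 (0.984), Itgb2 (0.983), which encodes the beta 2 integrin of leukocytes and microglia, and Cyb5d2 (0.970). Nearest to Psen2 were Cops3 (0.992), a subunit gene of the COP9 signalosome, Umad1 (0.989) and Pard6a (0.983), a cell polarity gene. With 6 libraries such values are common: 112, 55 and 66 genes had an r above 0.9 with App, Aph1a and Psen2.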

How the data were processed

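Hippocampal RNA was extracted with Trizol and made into directional NEBNext Ultra II libraries, per the labels' protocols, and reads were mapped to mm10 with TopHat, per the submitters' processing notes. The sources used here do not give the version, the annotation or the abundance program. The deposited values, 1 per gene and library, are on a log2 scale and behave as log2(FPKM + 1). This unit was read from the values. Fragments per library were estimated from the steps of genes with 1 coding transcript, of which 67.0% to 72.8% with under 3.5 steps lay within 0.15 of a whole step.

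The 13122 genes that reached 1 FPKM in 3 or more libraries entered a limma 3.58.1 fit (R 4.3.3) on genotype alone, with robust, trended eBayes, Benjamini-Hochberg adjustment over them all and a threshold of 0.05. Differences are on the log2(FPKM + 1) scale, which understates low genes. Levels were compared with exact sign-flip tests on log2 FPKM. Promoters are from the RefSeq table and coding sequences from GENCODE M21, aligned with Biopython 1.88. Both procedures were tested on simulated data. Figures were drawn with matplotlib 3.10.9.

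The members and lists were chosen with earlier results of these data known. Genes named besides the members are up to 2 with the smallest p in each pathway list (in the degradation list only the first is named) and the 3 most alike to App, Aph1a and Psen2. Some genes are not reported here, and they were left out of the lists and comparisons. The replicate numbers were not used to pair the libraries in the main fit. Alternatives were other scalings, filters, pseudocount, robust setting, a replicate block and each library left out.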

Additional observations from a re-analysis of the deposited data

How the results depend on the processing

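With all 6 libraries, 0 genes passed the threshold under quantile normalization, without the filter, with a filter at a mean of 5 FPKM (which drops Psen2), with median scaling, without the robust option, with a pseudocount of 0.1 and at an adjusted p of 0.1. Leaving out 1 library each gave 0 to 8 genes, of which none is a member. They were 8 without HET 1 and 1 each without HET 3, WT 1 or WT 2. The 8 were Adarb1, Inadl, Plcb4, Plekhg1, Prkcd, Scn4b, Shox2 and Slc17a6, all lower in HET. Of these, Plekhg1, Prkcd, Shox2 and Slc17a6 are on the thalamus and habenula marker list. The fit with the replicate block also gave 0 genes. Its count of 4 members whose genotypes did not overlap could not differ from the main count, because a block leaves the values unchanged. Deviations of same-numbered libraries correlated at -0.21, -0.25 and -0.16, and those of differently numbered libraries at 0.05 to 0.17. No library thus correlated best with its own number. Deviations from a mean of 3 libraries are tied to each other, so these values cannot show whether same-numbered samples were handled together. Members whose genotypes did not overlap numbered 3 with the filter that drops Psen2, 5 without WT 2 and 4 under the other alternatives. Ranges separate more easily with 1 library fewer. The share of all genes is not given for these settings, and nothing is read from the counts. The difference of Adam10 was -0.05 with quantile normalization and -0.08 with median scaling. Without single libraries, Aph1a ranged from 0.14 to 0.30, Psenen from 0.14 to 0.23 and Psen2 from -0.34 to -0.18, while App (-0.10 to 0.06), Mapt (-0.05 to 0.07), Bace1, Ncstn and Aph1b changed sign around 0. The smallest adjusted p of a member under any alternative was 0.888. The list median ranged from -0.028 to 0.066 for gamma-secretase genes and from -0.023 to 0.029 for amyloid beta degradation genes without single libraries; the cause was not tested. With the filter at a mean of 5 FPKM, which leaves out Psen2 and Aph1c, the gamma-secretase median was 0.11. Quantile normalization and log2(FPKM + 1) keep the order of the genes within a library. The counts past the threshold, 6 of 8 neighbour pairs and 14 of 15 subunit pairs, therefore could not change under them. Within HET alone 6 of the 8 neighbour pairs kept their order, and 8 within WT. The exact test could not reach 0.05 with 5 libraries (smallest p 0.0625) or 3 (0.25), so only the order was compared there. The alternatives planned for counts were not run, because the files hold log values. Depth limits Psen2 and Aph1c most.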
